A study of Mus musculus with 10 samples.

Results

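Kinesins are motor proteins that hydrolyse ATP to move along microtubules or to take microtubules apart. The genes described here are the kinesins measured in the embryonic mouse ovary whose symbol is Kif followed by a number and at most 1 letter. That rule picked 99 of the 45037 probe sets of the array that are not controls. They belong to 37 genes, all of which matched the RefSeq gene table by gene identifier. By textbook role, 11 genes (24 probe sets) are mitotic kinesins, 15 (56 probe sets) are transport kinesins, 5 (8 probe sets) act in cilia or at centrioles, and 6 (11 probe sets) are other kinesins.

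In dividing cells, mitotic kinesins push spindle poles apart, carry chromosomes, trim the ends of microtubules and build the midzone where the daughter cells separate. Transport kinesins carry vesicles, organelles and RNA through cells that may or may not divide. In the fetal ovary the germ cells divide by mitosis, stop, and enter the long prophase of meiosis, in which no spindle is built, surrounded by somatic cells of several kinds.

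RNA was extracted with Trizol from ovaries of 5 embryonic stages (E11.5, E12.5 and E14.5, then E16.5 and lastly E18.5, in days) and hybridised as biotin-labelled target to 1 oligonucleotide array for each of 10 samples. Each stage had 2 arrays from independent ovary preparations, with no treatment or genotype named in the labels, nor a strain or a number of pooled embryos. Values are scaled signals, the deposited signals brought to a common 75th percentile of 141.6, and changes are on the log2(signal + 16) scale with their SE. Precision is limited by the number of arrays.

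E12.5 replicate 2 was set aside in advance, with earlier results of these data known, so E12.5 rests on 1 array. The correlation of replicate 2 with the other arrays was 0.413 to 0.465, against 0.874 to 0.965 among the remaining 9. The E12.5 array that was kept, replicate 1, had a ratio of 3′ to 5′ signal of 10.6 for its Actb control, and the other 8 arrays kept had 1.51 to 2.22. On the array left out that ratio was 4.09. The arrays were hybridised in 3 runs by the times in the experiment files, the first with E11.5 and E12.5, the next with E14.5 and E16.5, and the last with both E18.5 arrays. Run and stage cannot be told apart in comparisons across runs, and E16.5 against E14.5 is the comparison of stages with 2 arrays each within a run. Between E11.5 and E18.5, 5 of 6 germ cell markers rose (Sycp3 by 5.58, Dazl by 2.83) and Pou5f1 fell by 2.55. The ovarian somatic markers Foxl2 and Fst rose, whereas Wt1 and Nr5a1 fell, and 2 of the 4 endothelial markers, Cdh5 and Emcn, fell. Of 4 erythroid markers the embryonic globins Hbb-bh1, Hba-x and Hbb-y fell and Alas2 rose, where 13.4% of all genes were higher and 16.6% lower. The part of these changes in the makeup of the tissue in the kinesin results was not tested.

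The promoters of mitotic kinesin genes shared a short sequence that most other kinesin promoters lacked. The letters TTTGAA, known as the cell cycle genes homology region, and CCAAT were searched on both strands in the RefSeq promoter windows, from 250 bases before to 50 bases after the start site, of GRCm38.p6. Of the 37 kinesin genes 31 had a promoter there. TTTGAA was present for 9 of 10 mitotic kinesin genes, 1 of 11 transport genes (Kif1a), 1 of 5 cilia and centriole genes (Kif27) and 1 of 5 other genes (Kif26b), beside 20.2% of all 27025 genes with a promoter and 17.9% of all 32851 promoters. CCAAT was present for 6 of 10 mitotic and 3 of 11 transport genes, beside 41.1% of all genes. The motifs do not overlap in letters. A match is a description of the letters and not evidence of a bound site.

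The last 80 bases before the start site are shown for 5 genes, each on the plus strand, with TTTGAA or CCAAT on either strand in capitals. Kif11 and Kif15, a pair of spindle motors, show the motif at the same distance from the start, its first base 19 bases before it (chr19:37376302-37376381 and chr9:122951001-122951080). Kif18a is the mitotic gene without TTTGAA (chr2:109280658-109280737). Kif26b is shown because it holds both motifs without being a mitotic kinesin (chr1:178529045-178529124). Kif5c stands for the transport genes with neither motif (chr2:49619206-49619285).
Kif11: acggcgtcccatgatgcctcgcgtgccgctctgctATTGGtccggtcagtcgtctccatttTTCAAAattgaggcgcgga
Kif15: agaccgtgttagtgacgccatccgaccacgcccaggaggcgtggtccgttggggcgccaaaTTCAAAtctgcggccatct
Kif18a: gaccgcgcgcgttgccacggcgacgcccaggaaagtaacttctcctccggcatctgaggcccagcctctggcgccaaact
Kif26b: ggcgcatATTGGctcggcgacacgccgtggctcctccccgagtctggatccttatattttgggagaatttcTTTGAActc
Kif5c: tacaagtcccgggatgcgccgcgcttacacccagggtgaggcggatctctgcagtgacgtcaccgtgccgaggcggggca

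Between the first and the last stage, E11.5 and E18.5, mitotic kinesins fell and most transport kinesins did not pass the test. With the brightest probe set standing for its gene, 33 of the 37 genes had a probe set bright enough to be tested, meaning at or above the median of all signals (47.7) on at least 2 of the 9 arrays. Of these, 14 passed an adjusted p of 0.05 in limma, 4 higher and 10 lower at E18.5, where 30.0% of all 13305 genes tested passed (13.4% higher, 16.6% lower). Of 9 mitotic kinesins tested 7 were lower and 0 higher, and the median change of the 9 was -1.23, against -0.00 over all genes tested. These counts leave out Kif2a, a depolymerase of spindles and axons that was classed with the other kinesins. It gave 0.37 ± 0.19 (adjusted p = 0.169). Of 15 transport kinesins 2 were higher and 1 lower, with a median change of 0.01. Both Kif9 and Kif27 rose among the 5 cilia and centriole genes, and both Kif26a and Kif26b fell among the 4 other genes tested. Kif9, Kif27 and Kif26a entered the test through 3 or 4 bright arrays each, of the stages where they were high, and their calls, 3 of the 14, describe where each was detected. With E12.5 replicate 2 kept in the fit, limma called 0 of the 33, with 9 at an unadjusted p under 0.05.

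**Figure D1:**
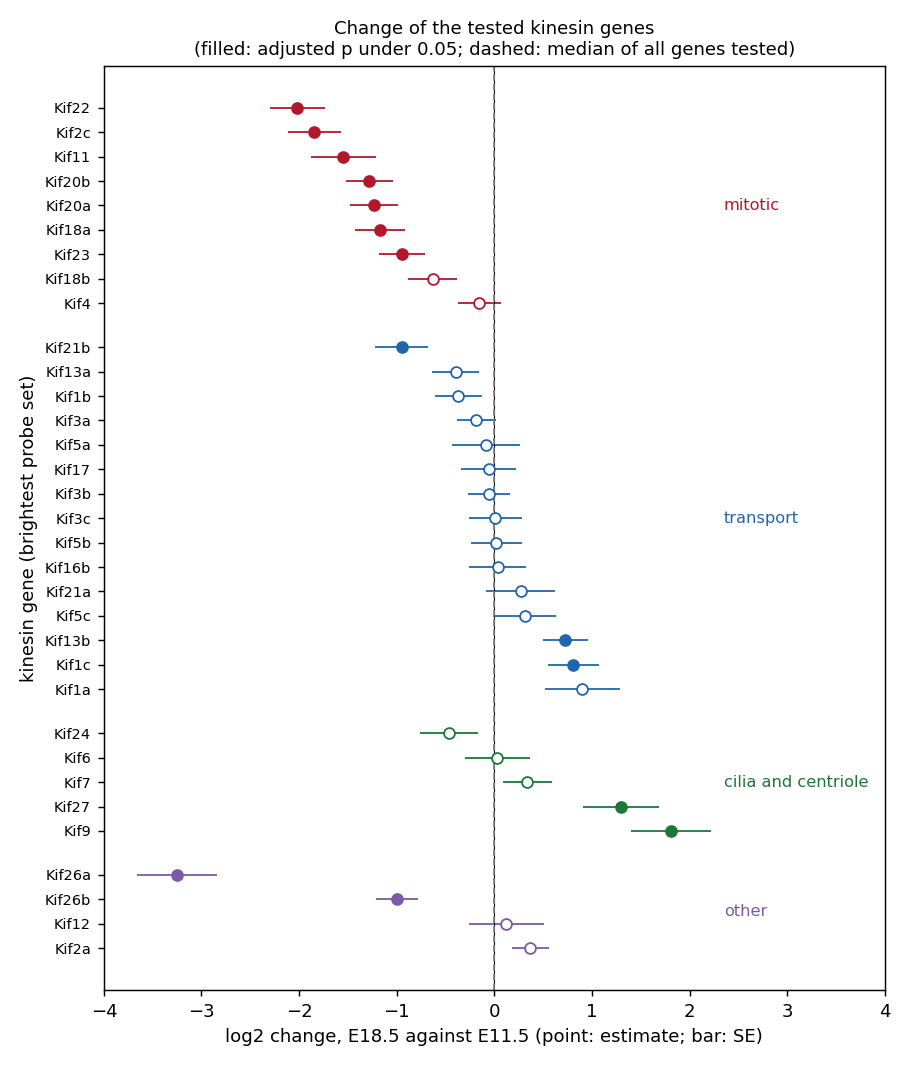
Log2 change from E11.5 to E18.5 (horizontal axis) of the 33 tested kinesin genes, ordered within each class, with points for the estimate and bars for its SE, filled where the adjusted p is under 0.05. All 9 mitotic estimates lie below 0, from -2.02 to -0.15, whereas the 15 transport estimates run from -0.95 to 0.90 around the dashed median of all genes.

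The mitotic kinesin genes that could not be tested were Kif14, a motor of the midbody, and Kif15, which helps keep the spindle bipolar. The Kif14 probe set read 1.20 to 32.4 over the 9 arrays and that of Kif15 5.15 to 42.0, and no array reached the median of all signals for either. The unspiked control probe sets, which have no target in the sample, gave a level for comparison, their 95th percentile on an array (19.5 to 32.9). Kif14 exceeded it on 1 array and Kif15 on 4.

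Among the tested motors and depolymerases of the mitotic class that shape the spindle and move chromosomes, 4 fell and 2 did not pass the test. Kif22, the chromosome arm motor known as Kid, read 2367 and 1324 at E11.5, 3550.4 on the E12.5 array, 654 and 1063 at E14.5, 681 and 541 at E16.5, and 436 and 413 at E18.5. Both E18.5 arrays lay below every earlier one. Its change from E11.5 to E18.5 was -2.02 ± 0.28 (adjusted p = 2.27e-04). This rests on a probe set whose identifier ends in _x_at, the array maker's mark for probes that may match other transcripts. The other 2 probe sets of Kif22 gave -0.41 ± 0.22 and -0.48 ± 0.27 and did not pass the test (adjusted p = 0.191 and 0.213).

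Kif2c, or MCAK, a depolymerase at kinetochores that corrects wrong attachments, read 1018 and 571 at E11.5, 1505 on the E12.5 array, 471 and 571 at E14.5, 201 and 164 at E16.5, and 245 and 164 at E18.5. The arrays of the first stages and those of E16.5 and E18.5 did not overlap. It fell by 1.85 ± 0.27 from E11.5 to E18.5 (adjusted p = 3.31e-04). Of its 4 tested probe sets 3 fell, by 0.77 to 1.85, where 26.2% of all 27510 probe sets tested passed in either direction. The dimmest gave 0.38 ± 0.37. The brightest also ends in _x_at, and the next brightest, which does not, gave -0.77 ± 0.21 (adjusted p = 0.0150).

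Kif11, or Eg5, the motor that slides spindle poles apart, read 371 and 262 at E11.5, 346 on the E12.5 array, 196 and 276 at E14.5, 168 and 91.2 at E16.5, and 64.7 and 140.2 at E18.5. Every E18.5 array lay below every array of E11.5 and E14.5, and E18.5 overlapped E16.5. Its change was -1.55 ± 0.33 (adjusted p = 0.00446). All 3 tested probe sets of Kif11 fell, by 0.69 to 1.55.

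Kif18a, which damps the swings of chromosomes at the metaphase plate and whose loss in mice depletes germ cells, peaked later. It read 317 and 184 at E11.5, 302 on the E12.5 array, 478 and 388 at E14.5, 183 and 131 at E16.5, and 97.3 and 99.5 at E18.5. Both E14.5 arrays stood above all others and both E18.5 arrays below. The change from E11.5 to E18.5 was -1.17 ± 0.26 (adjusted p = 0.00519), and the rise to E14.5 of 0.79 ± 0.26 did not pass the test (adjusted p = 0.105).

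Kif18b, which limits the length of astral microtubules, did not pass the test. It read 166 and 192 at E11.5, 141 on the E12.5 array, 144 and 162 at E14.5, 116 and 76.2 at E16.5, and 93.5 and 128 at E18.5. The E18.5 arrays lay below both E11.5 arrays, and the change was -0.63 ± 0.25 (adjusted p = 0.0758). Kif4, a chromosome motor that also works at the midzone, read 258 and 229 at E11.5, 272 on the E12.5 array, 242 and 216 at E14.5, 163 and 111 at E16.5, and 199 and 236 at E18.5. Its arrays at E11.5 and E18.5 overlapped, with a change of -0.15 ± 0.22 (adjusted p = 0.645) and its low point at E16.5.

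**Figure D2:**
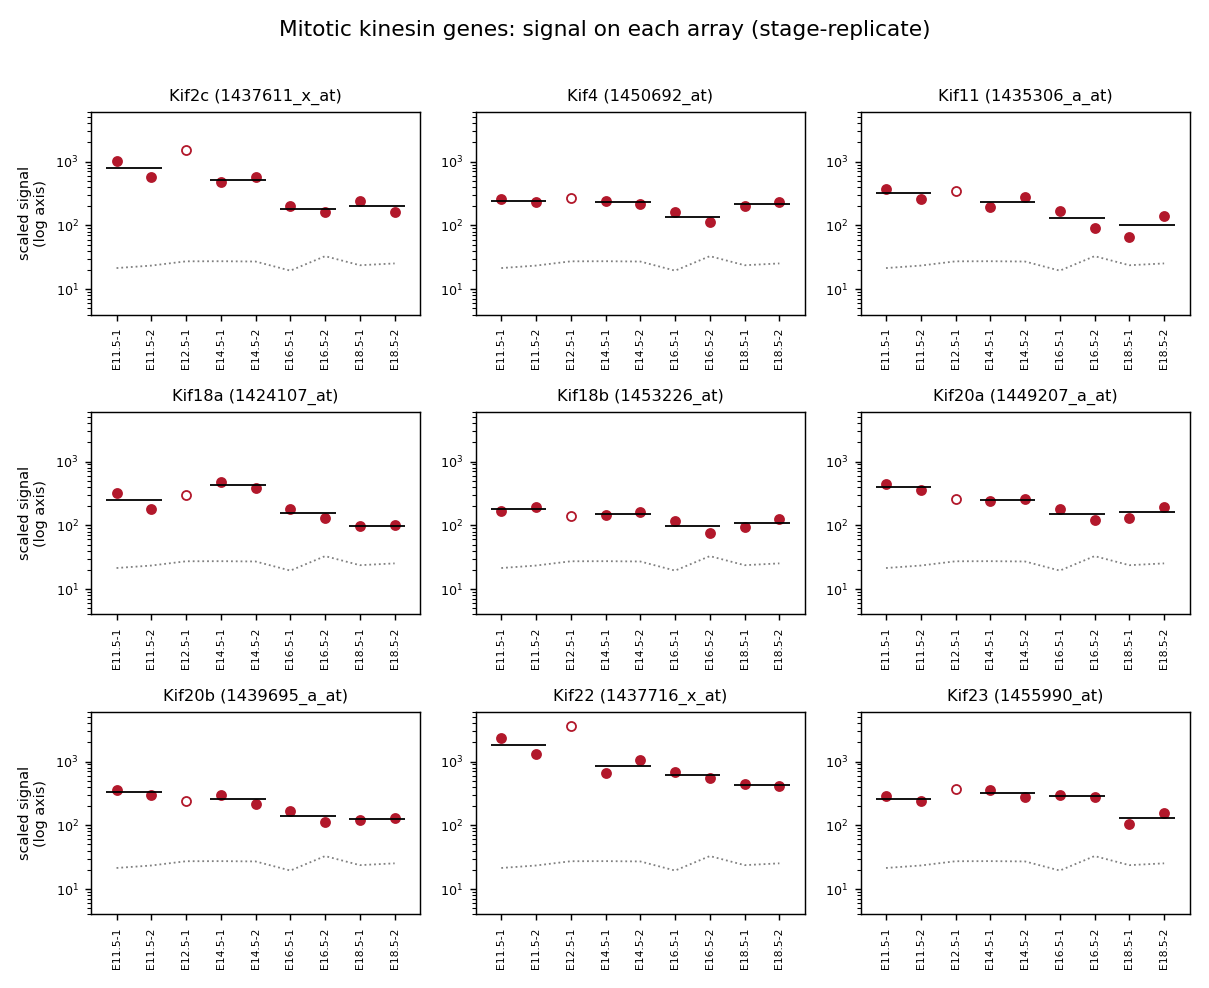
Scaled signal (log axis) of the 9 tested mitotic kinesin genes on each of 9 arrays, with bars for stage means of 2 arrays, an open point for the single E12.5 array and a dotted line for the 95th percentile of unspiked controls. Every point lies above that line, the E18.5 points of Kif22, Kif18a and Kif23 are the lowest of their panels, and those of Kif4 overlap E11.5.

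The kinesins of the midzone and of cytokinesis fell as well. Kif20a, or MKLP2, which brings the Aurora B complex to the midzone, read 439 and 364 at E11.5, 255 on the E12.5 array, 239 and 257 at E14.5, 183 and 122 at E16.5, and 132 and 196 at E18.5. The E11.5 arrays were above all others and E16.5 overlapped E18.5. Its change was -1.23 ± 0.24 (adjusted p = 0.00255).

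Kif20b, a motor needed for the last step of cytokinesis, read 362 and 295 at E11.5, 245 on the E12.5 array, 299 and 213 at E14.5, 167 and 113 at E16.5, and 120.4 and 129.9 at E18.5. No array of E16.5 or E18.5 reached any of the earlier ones. The change was -1.28 ± 0.24 (adjusted p = 0.00187), while its other tested probe set, with signals of 18.7 to 73.8, gave -0.04 ± 0.39. With the mean of both probe sets in place of the brightest, the change was -0.659 ± 0.253 and the call was lost (adjusted p = 0.0680).

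Kif23, or MKLP1, the motor subunit of centralspindlin, read 287 and 239 at E11.5, 373 on the E12.5 array, 358 and 274 at E14.5, 296 and 273 at E16.5, and 103 and 159 at E18.5. The E16.5 arrays lay within the range of the earlier ones, and both E18.5 arrays lay below all others. The change from E11.5 to E18.5 was -0.95 ± 0.23 (adjusted p = 0.00950), while its other tested probe set gave -0.39 ± 0.30 and did not pass (adjusted p = 0.356).

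Leaving out 1 array at a time kept 5 to 7 of the mitotic falls. Kif2c, Kif20a, Kif20b and Kif22 passed when any 1 of the 8 arrays other than E12.5 was left out. Without E18.5 replicate 1, Kif11 had an adjusted p of 0.0686 and Kif23 of 0.131. Without E11.5 replicate 1, Kif18a had 0.0543 and Kif23 0.0590.

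These falls went along with those of general markers of dividing cells. From E11.5 to E18.5 Mki67 fell by 1.56, Top2a fell by 1.98 and Cdc20 fell by 2.60, and Pcna, with -0.25 ± 0.26, did not pass the test. The Cdc20 probe set ends in _x_at. The summed signal of the 4 proliferation markers on the array was 7957 to 12628 at E11.5 and 5185 to 5510 at E18.5, and none of them was at 0. Fewer dividing cells and less RNA per dividing cell cannot be told apart in whole ovaries.

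Step by step, the median change of the 9 mitotic kinesins was -0.35 from E11.5 to E14.5, -0.70 from E14.5 to E16.5 and -0.12 from E16.5 to E18.5, and differences between steps were not tested. In the middle step, whose stages shared a hybridisation run, all 9 estimates were negative, and the median over all genes tested was -0.04. By the adjusted p 3 kinesin genes passed, where 3.82% of all genes did (2.62% lower, 1.20% higher), with Kif2c at -1.43 ± 0.27 (adjusted p = 0.0178), Kif18a at -1.39 ± 0.26 (adjusted p = 0.0170) and Kif9 at 1.65 ± 0.41 (adjusted p = 0.0491). A fit of the 4 arrays of that run alone gave -1.43 and -1.39 for Kif2c and Kif18a, which passed, and 1.66 for Kif9, with an adjusted p of 0.0626. Kif9 entered the test through its E16.5 and E18.5 arrays, with E14.5 under the unspiked control level, and its call describes where it was detected. The Kif2c probe set ends in _x_at, and the next brightest gave -0.81 ± 0.21 (adjusted p = 0.0512). Without E14.5 replicate 1, E14.5 replicate 2 or E16.5 replicate 2, limma called 0 of the 33 genes, with 9, 9 and 4 of them at an unadjusted p under 0.05. At the same step 4 of 6 germ cell markers (Ddx4, Dazl, Pou5f1 and Dppa3), 3 of 4 erythroid markers (Hbb-bh1, Hba-x and Hbb-y) and 1 of 4 proliferation markers (Cdc20) fell, and 1 of 6 ovarian somatic markers (Foxl2) rose. The part of these changes in the kinesin results was not tested.

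**Figure D3:**
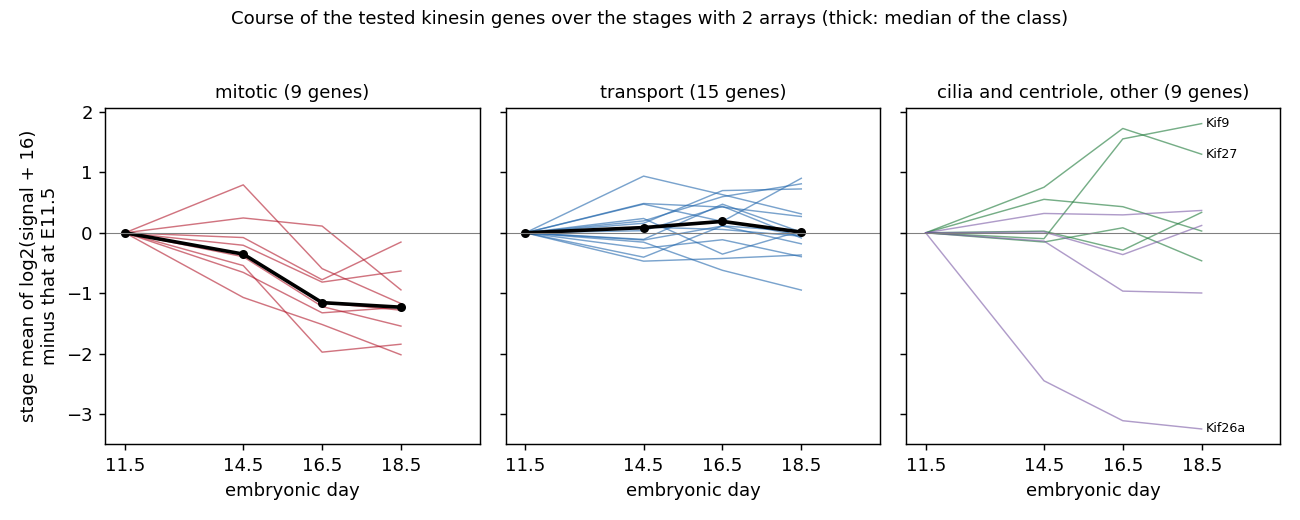
Stage means of log2(signal + 16) minus that at E11.5 (vertical axis) against embryonic day for the 33 tested kinesin genes, 1 thin line each, with a thick line for the class median in the mitotic and transport panels. The median of the mitotic genes lies lower at E16.5 and E18.5 than at E14.5, and that of the transport genes runs near 0.

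Before and after that step fewer kinesin genes passed. From E11.5 to E14.5 they were Kif22 (-1.07 ± 0.28, adjusted p = 0.0474) and Kif26a, 2 of 33 and both lower, where 5.63% of all genes passed (2.13% lower). Kif26a entered the test through its E11.5 and E12.5 arrays and E14.5 replicate 1, and its call describes where it was detected. The Kif22 call was lost without any of 6 arrays, one at a time, and its other probe sets gave -0.51 and -0.38 without passing. From E16.5 to E18.5 limma called 0 of 33 kinesin genes, with 4 at an unadjusted p under 0.05, where 1.15% of all genes passed. Kif23 came nearest, at -1.06 ± 0.23 with an adjusted p of 0.0590. Over the stages with 2 arrays, 7 of the 9 mitotic genes had their highest mean at E11.5 and Kif18a and Kif23 at E14.5, while the lowest mean was at E16.5 for 4 and at E18.5 for 5.

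An F test over the 4 stages with 2 arrays called 11 of the 33 kinesin genes, where 28.1% of all genes passed. They were 7 of 9 mitotic genes, 2 of 5 cilia and centriole genes, 2 of 4 other genes and 0 of 15 transport genes, with 3 at an unadjusted p under 0.05. The calls of Kif9, Kif27 and Kif26a again describe where each was detected, as they entered the test through stages where they were high. The mitotic genes also varied together over the 8 arrays of these stages. Pearson's r between pairs of mitotic genes had a median of 0.740 (36 pairs, 35 above 0), between mitotic and transport genes -0.121 (135 pairs) and between pairs of transport genes 0.0575 (105 pairs). The arrays are shared by all pairs, and the correlations describe these arrays.

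Among 13272 genes outside the kinesins, those most like the mean course of the 9 mitotic kinesins over these 8 arrays were Ssh1 and Timm44 (r = 0.992), Clns1a and Polr2i (r = 0.989), Gmeb1, Mterf3 and Tra2b (r = 0.987), Cep68 (r = 0.986), and Med20 and Psmc2 (r = 0.985). They were picked as the highest of 13272 correlations, which is a description with no test. The probe sets of Clns1a and Psmc2 end in _x_at. Ssh1 fell by 2.54 and Polr2i by 0.55 from E11.5 to E18.5, so that genes alike in course differed in the size of their change.

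Most partners of the mitotic kinesins fell as well. Of 18 spindle and midzone partners tested, 12 fell and 1 rose from E11.5 to E18.5, where 16.6% of all genes were lower and 13.4% higher, with a median of -0.86 beside -0.00 for all genes. Aurkb, the kinase that Kif20a carries, read 236 and 216 at E11.5 and 51.6 and 50.3 at E18.5, and fell by 1.85 ± 0.27 (adjusted p = 3.00e-04). That Aurkb probe set ends in _x_at as well. Racgap1, the partner of Kif23 in centralspindlin, fell by 0.88 ± 0.22, and Anln, a scaffold of the contractile ring, by 1.62 ± 0.21. Prc1, which bundles midzone microtubules together with Kif4, read 422 and 424 at E11.5, 268 and 257 at E16.5, and 804 and 664 at E18.5. It rose by 0.77 ± 0.19 from E11.5 to E18.5 (adjusted p = 0.0108), while Kif4 did not pass.

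Kinesins outside the naming rule were Kifc1, Kifc2, Kifc3 and Cenpe. Kifc3, a motor that walks towards microtubule minus ends, rose by 1.05 ± 0.27 (adjusted p = 0.0129). Kifc1, a spindle motor of the same walking direction, and Cenpe, the kinetochore motor, gave 0.28 ± 0.27 and -0.44 ± 0.21 and did not pass. Kifc2 gave -0.70 ± 0.53.

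Among the transport kinesins 3 of 15 passed between E11.5 and E18.5, and each call was lost without at least 1 array. Kif1c, which carries vesicles and RNA, read 112 and 75.3 at E11.5, 292 on the E12.5 array, 101 and 115 at E14.5, 129 and 169 at E16.5, and 142 and 212 at E18.5. The E18.5 arrays were above both E11.5 arrays, while the E12.5 array was above all. The change was 0.81 ± 0.26 (adjusted p = 0.0343), and the other tested probe set of Kif1c rose by 1.18 ± 0.25 (adjusted p = 0.00445). Without E11.5 replicate 2 the adjusted p was 0.204 and without E18.5 replicate 2 it was 0.247.

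Kif13b, a motor of polarised membrane traffic, read 105 and 134 at E11.5, 119 on the E12.5 array, 120.4 and 149.6 at E14.5, 174 and 236 at E16.5, and 215 and 199 at E18.5. Its arrays of E16.5 and E18.5 were above all earlier ones. The change was 0.73 ± 0.23 (adjusted p = 0.0343). Without E11.5 replicate 1, E18.5 replicate 1 or E18.5 replicate 2 the adjusted p was 0.175, 0.159 and 0.0980.

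Kif21b, a neuronal kinesin that also limits microtubule growth, read 126 and 134 at E11.5, 129 on the E12.5 array, 126 and 105 at E14.5, 107 and 57.4 at E16.5, and 58.9 and 60.6 at E18.5. The E18.5 arrays lay below all arrays of E11.5, E12.5 and E14.5. It fell by 0.95 ± 0.27 (adjusted p = 0.0206). Without E11.5 replicate 1, E11.5 replicate 2, E18.5 replicate 1 or E18.5 replicate 2 the adjusted p was 0.0724, 0.0893, 0.0885 and 0.0734.

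The other 12 transport genes gave changes from -0.40 to 0.90 and did not pass. Kif3a and Kif3b, which form the heterotrimeric kinesin-2 that moves cargo in cilia and cytoplasm, gave -0.18 ± 0.20 and -0.05 ± 0.22. The kinesin-2 relatives Kif3c and Kif17 gave 0.01 ± 0.27 and -0.06 ± 0.28. Kif5b, the conventional kinesin heavy chain of most tissues, gave 0.02 ± 0.26, and its neuronal relatives Kif5a and Kif5c gave -0.09 ± 0.34 and 0.31 ± 0.32. Kif1a, a carrier of synaptic vesicle precursors, gave 0.90 ± 0.38 (adjusted p = 0.0970) with signals of 18.9 to 63.9. The mitochondrial and vesicle motor Kif1b gave -0.37 ± 0.24. The endosome motors Kif13a and Kif16b gave -0.40 ± 0.24 and 0.03 ± 0.29, and Kif21a, a relative of Kif21b, 0.27 ± 0.36.

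Probe sets of the same transport gene did not always go the same way. Of 6 tested probe sets of Kif5b, 2 fell (by 1.70 ± 0.26 and 1.30 ± 0.29), 1 rose (0.89 ± 0.27) and 3, the brightest among them, did not pass. The probe set with the largest fall read 435 and 408 at E11.5 and 109.7 and 128 at E18.5, and the one that rose read 91.6 and 104 at E11.5 and 204 and 187 at E18.5. The stages did not overlap in either. For Kif16b the second tested probe set read 67.3 and 70.2 at E11.5 and 202 and 242 at E18.5 and rose by 1.49 ± 0.25 (adjusted p = 9.04e-04), where the brightest did not pass. For Kif1b 1 of 7 fell (by 0.85), and for Kif3a 1 of 4 rose (by 0.72). Of all 40 transport probe sets tested 6 were higher and 4 lower, which is near the 26.2% of all 27510 probe sets called in either direction. Which transcript forms these probe sets measure was not analysed here.

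**Figure D4:**
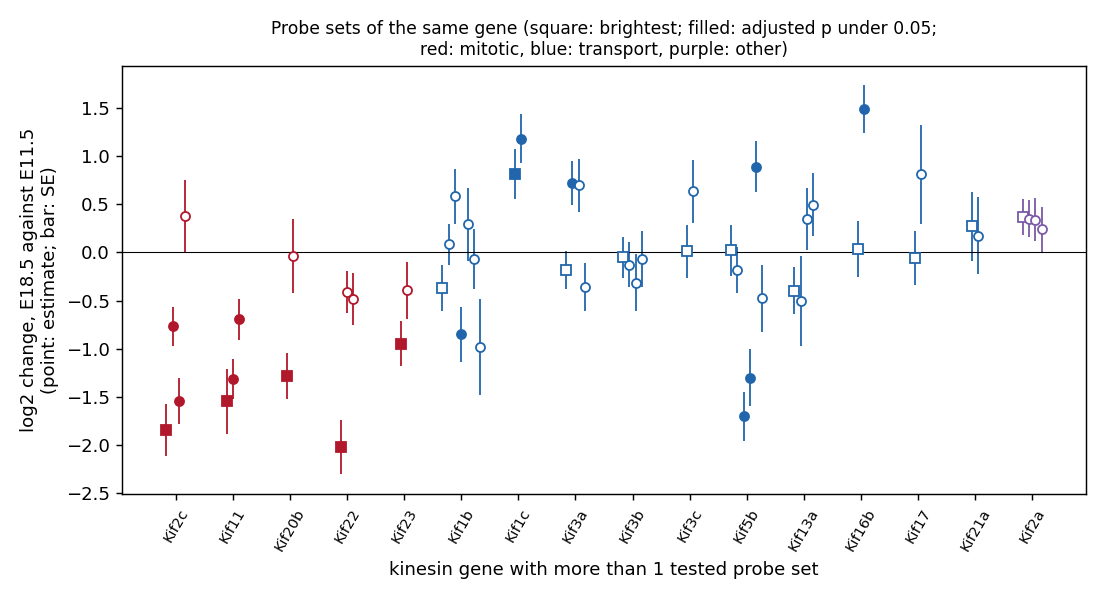
Log2 change from E11.5 to E18.5 with SE (vertical axis) for each tested probe set of the kinesin genes with more than 1, with squares for the brightest probe set of a gene and filled symbols for an adjusted p under 0.05. The 3 probe sets of Kif11 all fell, whereas those of Kif5b ran from -1.70 to 0.89.

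The list for the cargo side of transport held light chains and adaptors, with the cargo Kidins220 and Uchl1, neither of them a light chain. Of its 13 tested genes 4 rose and 0 fell between E11.5 and E18.5, with a median of 0.38. The 4 of 13 is near the 30.0% of all genes called in either direction. All 4 were higher, where 13.4% of all genes were higher and 16.6% lower. Uchl1, a ubiquitin hydrolase of neurons and germ cells placed among the cargo genes, read 139.8 and 94.4 at E11.5 and 974 and 952 at E18.5, and rose by 2.90 ± 0.25 (adjusted p = 4.52e-06). Klc3, a light chain known from the sperm tail, rose by 1.42 ± 0.38, Madd, an adaptor of Kif1 motors, by 1.15 ± 0.24, and Kidins220, a membrane scaffold and Kif5 cargo, by 0.64 ± 0.18. Klc3 read 28.8 and 11.15 at E11.5 and 62.7 and 94.5 at E18.5. It entered the test through arrays later than E11.5, and its call describes where it was detected. The widely used light chain Klc1 gave 0.05 ± 0.22 and Kifap3, the third subunit of kinesin-2, -0.57 ± 0.22 (adjusted p = 0.0663).

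Cytoplasmic dynein, the motor that runs opposite to most kinesins, and its activator dynactin had 19 genes tested. Of these 1 rose (Dync1i1, an intermediate chain, by 1.46 ± 0.35) and 5 fell. Dync1i1 read 33.1 and 13.5 at E11.5 and 117 and 66.5 at E18.5. It entered the test through arrays later than E11.5, and its call describes where it was detected. The falls were Dctn6 by 1.66, Dynll1 by 1.48, Dynlrb1 by 1.27, Dynlt3 by 0.80 and Dync1i2 by 0.76, and the median of the 19 was -0.18. The 6 of 19 called is near the 30.0% over all genes in either direction, of which 13.4% were higher and 16.6% lower. Dync1h1, the heavy chain, gave 0.08 ± 0.18. Of 14 genes of intraflagellar transport, which kinesin-2 drives in cilia, 2 rose (Ift27 by 1.34 and Dync2li1 by 0.95) and 0 fell, with a median of 0.28. The 2 of 14 called is under the 30.0% over all genes in either direction and near the 13.4% higher. The Ift27 probe set ends in _x_at.

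Several transport kinesins and Uchl1 are also neuronal genes, and the part of neurons in their values was not tested. Of 7 neuronal and neural crest markers on the array 5 were tested and limma called 0, with 1 at an unadjusted p under 0.05 and Stmn2 at -0.70 ± 0.44. Their summed signal was 269 to 331 at E11.5 and 256 to 293 at E18.5, with none at 0 and 1 and 2 of them under the unspiked control level on every array of the stage. At E14.5 the sum ranged more widely, from 228 to 622.5, with Stmn2 at 54.4 on replicate 1 and 195 on replicate 2.

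Among kinesins of cilia and centrioles, Kif9, a motor known from motile cilia and sperm tails, read 33.5 and 6.50 at E11.5, 18.8 on the E12.5 array, 10.5 and 20.7 at E14.5, 71.8 and 93.5 at E16.5, and 104 and 97.6 at E18.5. The arrays of E16.5 and E18.5 were above all earlier ones, which, apart from E11.5 replicate 1, were under the unspiked control level. It rose by 1.81 ± 0.41 from E11.5 to E18.5 (adjusted p = 0.00621). The size depends on the number added before the logarithm, with 2.66 for 1 and 0.99 for 64. Without E11.5 replicate 2 the adjusted p was 0.0621.

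Kif27, a motile cilia relative of the Hedgehog regulator Kif7, read 9.82 and 7.02 at E11.5, 37.2 on the E12.5 array, 24.5 and 25.8 at E14.5, 58.2 and 72.0 at E16.5, and 34.7 and 55.1 at E18.5. The E16.5 arrays were the highest and the E11.5 arrays the lowest, and all arrays of E11.5 and E14.5 lay under the unspiked control level. It reached the brightness needed for the test on 3 arrays, both of E16.5 and E18.5 replicate 2. Against E11.5 levels not above background, the fitted change was 1.30 ± 0.39 (adjusted p = 0.0256), or 2.27 with 1 added and 0.58 with 64. Without E11.5 replicate 1, E11.5 replicate 2 or E18.5 replicate 2 the adjusted p was 0.0716, 0.0979 and 0.166.

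The remaining genes of this class did not pass, with Kif7 at 0.34 ± 0.25, Kif6 at 0.03 ± 0.33 and Kif24, which trims centriolar microtubules, at -0.46 ± 0.30. Of 5 markers of multiciliated and duct epithelium on the array 4 were tested and limma called 0, with 0 at an unadjusted p under 0.05. Their summed signal was 239 to 259 at E11.5 and 242 to 294 at E18.5, and none was at 0.

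Kif26a and Kif26b are atypical kinesins that act in development. Kif26a, known for its role in the enteric nervous system, read 266 and 183 at E11.5, 262 on the E12.5 array, 52.2 and 11.53 at E14.5, 11 and 11.77 at E16.5, and 11.4 and 6.63 at E18.5. All arrays from E14.5 replicate 2 onwards were under the unspiked control level. It fell by 3.25 ± 0.41 from E11.5 to E18.5 (adjusted p = 1.13e-04), or by 4.51 with 1 added and 1.97 with 64. The fall was already -2.45 ± 0.41 at E14.5 (adjusted p = 0.00346, or 0.0688 without E11.5 replicate 1).

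Kif26b, needed for the adhesion of kidney mesenchyme, read 219 and 202 at E11.5, 550.0 on the E12.5 array, 185 and 194 at E14.5, 107 and 92.8 at E16.5, and 85.0 and 111 at E18.5. The early stages with 2 arrays did not overlap with E16.5 or E18.5. The change from E11.5 to E18.5 was -0.997 ± 0.212 (adjusted p = 0.00409, or 0.0568 without E18.5 replicate 1). Like Kif27 among the non-mitotic genes, Kif26b holds both motifs in its promoter.

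Kif2a, a depolymerase of spindles and axons, did not pass, with 0.37 ± 0.19 and 4 tested probe sets between 0.24 and 0.37. Kif12 gave 0.12 ± 0.39 at signals of 26.4 to 77.8. Kif2b read at most 4.44 and Kif28 at most 7.90 on any of the 9 arrays, under the unspiked control level throughout.

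**Figure D5:**
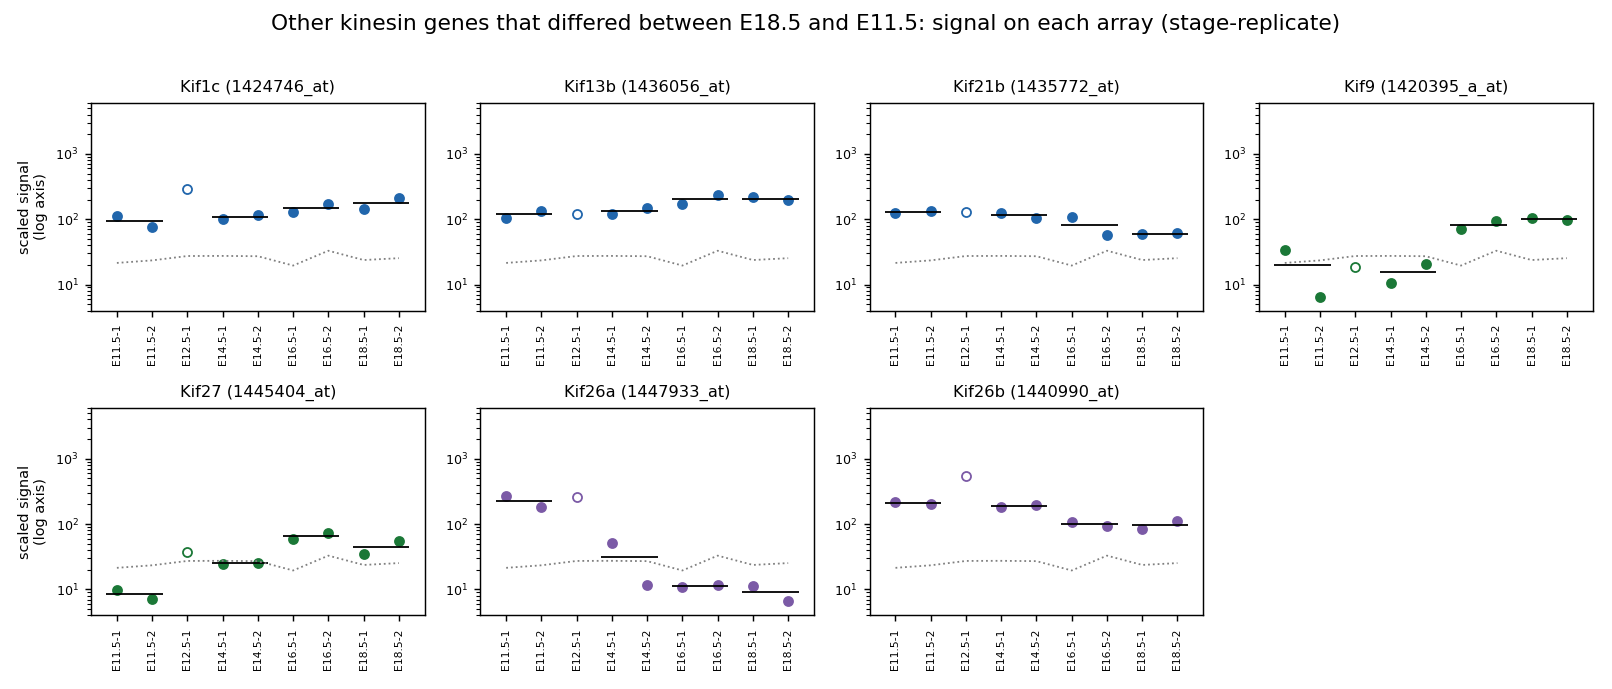
Scaled signal (log axis) on each of 9 arrays for the 7 kinesin genes outside the mitotic class that passed between E11.5 and E18.5, with bars for stage means of 2 arrays, an open point for the single E12.5 array and a dotted line for the 95th percentile of unspiked controls. Kif26a lies under the dotted line from E14.5 replicate 2 on, and Kif9 rises above it at E16.5.

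At E12.5 the values come from 1 array, the one with the high Actb ratio. Against E11.5, 2 of 33 kinesin genes passed, where 6.99% of all genes did (4.83% higher), both higher, Kif1c by 1.51 ± 0.32 and Kif26b by 1.32 ± 0.26. From E12.5 to E14.5, 5 of 33 passed, where 10.6% of all genes did and 6.99% were lower, all lower (Kif26a by 2.68, Kif22 by 2.07, Kif2c by 1.51, Kif26b by 1.46 and Kif1c by 1.31). Probe sets of 1 gene split on this array. The other tested probe set of Kif1c gave 0.18 against E11.5 and 0.47 from E12.5 to E14.5. For Kif22 the other probe sets gave -0.75 and -0.29 from E12.5 to E14.5. The brightest probe set of Kif2c gave 0.97 ± 0.33 against E11.5 (adjusted p = 0.0898), and 2 others fell, by 1.16 and 1.12. For Kif3b 3 of 4 probe sets fell against E11.5, by 1.29 to 2.12, where 5.29% of all probe sets were lower, and for Kif2a 2 of 4, by 1.31 and 1.27. The part of the high 3′ to 5′ ratio in these splits was not tested.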

How the data were processed

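The authors deposited 1 intensity per probe set on a linear scale for each array, with a 2% trimmed mean of 125 on every array, made with software not given in the sources used here. Experiment files that the authors deposited hold other content (settings of the hybridisation, wash and scan, and no signals) and gave the run of each array. Of 45101 probe sets, 64 controls were left out. The probe annotation gave 1 symbol for 34945, several for 932 and none for 9160.

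Each array was scaled to a 75th percentile of 141.6, 16 was added, and log2 was taken. Testing needed 2 or more of 9 arrays at or above the median of 47.7, which left 27510 probe sets. E12.5 replicate 2 was not used. Tests were two-sided in limma 3.58.1 (R 4.3.3; a mean for each stage, eBayes with trend, 4 residual and 9.26 prior degrees of freedom). P-values were adjusted by the Benjamini-Hochberg method across the 27510, with a threshold of 0.05, and the brightest probe set stood for its gene. E12.5, a single array, was taken to vary as the others do. The procedure was tested on simulated data. Every kinesin gene of the rule is accounted for, and the signal on every array is given for the mitotic genes tested and for other genes that passed between E11.5 and E18.5. The genes, classes, lists and tests were chosen with earlier results of these data known. Promoters are from RefSeq (GRCm38.p6), and 80-base stretches were shown where the start site is the outermost start of the gene. Figures were drawn with Python 3.11.15 and matplotlib 3.10.9. Alternatives tried were other scalings, added numbers and filters, left-out arrays, a replicate block, other rules for the probe set of a gene, and fits within a run.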

Additional observations from a re-analysis of the deposited data

Results flagged for a closer look

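On E12.5 replicate 2, which no comparison used, 19 of the 99 kinesin probe sets, from 15 genes, read above 203, the 95th percentile of that array's own unspiked controls. This signal in an array outside the comparisons is given for a closer look. The highest was the _x_at probe set of Kif22, at 11292.5 as deposited, followed by Kif18b at 552.9 and Kif13b at 463.9. The 75th percentile of all probe sets on that array was 190.8 as deposited, and the share of all probe sets above 203 was not counted.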

How the results depend on the processing

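With all 10 arrays limma called 0 kinesin genes in every comparison, with 9 at an unadjusted p under 0.05 for E18.5 against E11.5, 2 for E16.5 against E14.5 and 6 in the F test. This covers the 14 genes, 7 mitotic falls and 3 transport genes of E18.5 against E11.5. For E14.5 against E11.5, 1 kinesin and 0 mitotic genes passed, in place of 2 and 1, under quantile normalization, 1 added, no filter, the mean of a gene's probe sets, the replicate block, and without probe sets ending in _x_at or _s_at. For E18.5 against E16.5, 1 gene (Kif23, a mitotic fall) passed in place of 0 on values as deposited and under quantile normalization. Without a filter 1 transport gene passed for E18.5 against E11.5, and 7 when any probe set counted. That rule gave 7 genes for E12.5 against E11.5 and 8 for E14.5 against E12.5. Without _x_at and _s_at probe sets, 4 genes passed for E12.5 against E11.5, 3 for E14.5 against E12.5 and 1 mitotic gene for E16.5 against E14.5. Kif22 then gave -0.48 for E18.5 against E11.5, and Kif2c reversed to -1.16 for E12.5 against E11.5 and 0.73 for E14.5 against E12.5, since another probe set stood for it.

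Leaving out 1 array at a time gave 9 to 14 kinesin genes, 5 to 7 mitotic falls and 0 to 3 transport genes for E18.5 against E11.5. It gave 1 to 2 genes and 0 to 1 mitotic falls for E14.5 against E11.5, 0 to 4 and 0 to 2 for E16.5 against E14.5, and 0 to 1 and 0 to 1 for E18.5 against E16.5. For E12.5 against E11.5 it gave 1 to 4, for E14.5 against E12.5 3 to 6, and in the F test 9 to 14. The replicate numbers do not pair the arrays (correlations of deviations from -0.0729 to 0.0361), and the replicate block moved no other count by over 1.5 times. Among the calls over all probe sets between E11.5 and E18.5 44.8% were higher, and 56.7% with the deposited scaling, where the median of all probe sets moved from 0.03 to 0.15. Over 22 alternatives, of 3730 values of single genes 3616 kept direction and side of the threshold, 88 lost a call, 24 gained one and 2 reversed. Other than for the Kif2c and Kif22 calls above, the cause of these moves was not tested. Signals near the unspiked controls limit Kif9, Kif26a and Kif27.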
